A study of Mus musculus with 6 samples.

Results

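The 9 genes described here encode proteins of the tight junction: the claudins *Cldn1*, *Cldn2*, *Cldn3*, *Cldn4* and *Cldn12*, occludin (*Ocln*), the junctional adhesion molecule JAM-A (*F11r*), and the cytoplasmic plaque proteins ZO-1 (*Tjp1*) and cingulin (*Cgn*). They were picked by symbol and matched to the Ensembl identifiers of the count tables, which placed 9 of 9 among 55487 genes. RNA sequencing had been carried out on hepatocytes, the main epithelial cells of the liver, from mice aged 6 to 8 weeks. One group was wild type (WT) and the other homozygous for AEG-1-C75S, an allele in which a cysteine of the protein encoded by *Mtdh* is replaced by serine. Both came from matings of heterozygotes, all libraries carry the treatment label Control, and RNA was taken 48 h after the cells were isolated. There were 3 libraries per group. The labels give neither strain nor sex and do not say whether each library is a separate mouse, so p-values measure only the spread between these libraries.

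Tight junctions seal the space between neighbouring epithelial cells. Claudins and occludin form strands within the membrane, JAM-A mediates adhesion beside them, and ZO-1 and cingulin tie the strands to the actin cytoskeleton. In the liver these junctions close the bile canaliculus, the channel between adjoining hepatocytes, and keep bile apart from blood. Claudins differ in what they let pass: claudin-2 forms pores for small cations and water, whereas claudin-1 and claudin-3 act mainly as barriers.

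The libraries held between 16944723 and 21044292 reads on genes, C75S replicate 1 being the shallowest. WT replicate 1 had the fewest genes detected, 17412 against 18125 to 18575 in the other libraries. On the first 2 principal components, the main axes of variation, it lay at 23.9 and 17.4. WT replicate 2 lay at 7.74 and -14.6, and WT replicate 3 at 7.41 and -15.2. The cause was not tested. *Mtdh* itself averaged 197 ± 5.17 CPM (read counts scaled to a common library size) over the WT libraries and 200 ± 10.5 over the C75S libraries (SD, n = 3 each; edgeR adjusted p = 0.909), and gene counts do not read the altered codon. The defining hepatocyte marker *Alb* was the most abundant of the 10 hepatocyte markers in every library. Of 10 hepatocyte markers 1 was called in the genotype comparison (adjusted p under 0.05, reached by 3.11% of all tested genes), *Cyp2e1*, higher in C75S. Of the 10, 5 had positive and 5 negative log2 fold changes, and 2 had an unadjusted edgeR p under 0.05, *Cyp2e1* and *Alb*. *Alb* was lower in C75S, at 60551 ± 5468 CPM against 67081 ± 3615 CPM in WT (edgeR adjusted p = 0.347), and its genotypes overlapped. Of the endothelial, stellate cell and Kupffer cell or leukocyte markers, 7, 4 and 2 could be tested and 0 were called in edgeR, DESeq2 or limma-voom. An unadjusted edgeR p under 0.05 was reached by 2, 0 and 0 of them, against 13.4% of all tested genes. Of the 7 endothelial markers 6 had higher means in C75S. The genotypes did not overlap for 3 of the 7, all higher in C75S, against 9.01% of all tested genes. The median log2 fold change of the 7 was 0.69. The 10 endothelial markers summed to 31.6 to 42.6 CPM in WT and 33.6 to 43.7 CPM in C75S. The largest part of that sum came from *Stab2*, at 26.4 ± 5.75 CPM in WT and 24.9 ± 4.88 CPM in C75S. *Stab2* was the only tested endothelial marker with a lower mean in C75S. The part of the endothelial markers in the results that follow was not tested. The Kupffer cell and leukocyte markers were near 0 except *Cd68*, and the 5 mesothelial markers summed to at most 0.237 CPM. A difference in cell make-up and a difference in RNA per cell cannot be told apart in bulk libraries such as these.

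The stretches upstream of the 3 genes with the largest positive differences are shown first, because the counts of these genes were the ones that differed most between genotypes. Each line gives the 250 bases before the start annotated in RefSeq, 5′ to 3′ on the gene's own strand, from RefSeq (GRCm38.p6), where 9 of 9 genes were matched. Capitals mark matches on either strand to the TATA box TATAAA, the GC box GGGCGG, the box CCAAT, the E-box CAGGTG that Snail and ZEB repressors read, and the AP-1 site TGANTCA.
Cldn2, chrX:139800558-139800807, plus strand: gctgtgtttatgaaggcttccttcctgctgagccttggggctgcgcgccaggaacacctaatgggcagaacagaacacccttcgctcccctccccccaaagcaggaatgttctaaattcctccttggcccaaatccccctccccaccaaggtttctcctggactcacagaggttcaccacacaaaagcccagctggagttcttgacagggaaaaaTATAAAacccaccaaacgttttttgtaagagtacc
Cgn, chr3:94786483-94786732, minus strand: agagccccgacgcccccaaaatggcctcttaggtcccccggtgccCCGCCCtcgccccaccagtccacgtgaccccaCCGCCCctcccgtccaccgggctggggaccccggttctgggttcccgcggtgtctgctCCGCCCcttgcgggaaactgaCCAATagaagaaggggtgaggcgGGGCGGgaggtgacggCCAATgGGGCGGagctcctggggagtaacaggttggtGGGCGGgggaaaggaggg
Cldn4, chr5:134946935-134947184, minus strand: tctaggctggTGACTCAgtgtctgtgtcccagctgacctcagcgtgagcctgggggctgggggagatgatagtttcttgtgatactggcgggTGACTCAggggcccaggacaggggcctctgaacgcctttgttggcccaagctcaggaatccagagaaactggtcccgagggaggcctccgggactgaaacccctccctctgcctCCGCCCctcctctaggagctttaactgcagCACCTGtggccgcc

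Of the 5 motifs 0 occurred in all 3 stretches. The *Cldn2* stretch held 1 TATAAA match, starting 35 bases before the RefSeq start, and 0 matches to the other motifs. It was the only one of the 12 upstream stretches listed for the 9 genes with TATAAA, which occurs in 12.4% of all 32851 stretches of this length. The *Cgn* stretch held 6 GC boxes and 2 CCAAT matches, was 70.4% G or C, and had 19 CpG dinucleotides against a median of 6 over all stretches. Over the stretches of the other genes the CpG count ran from 4 for *Cldn2* to 22 for *Tjp1* and for 1 *Ocln* stretch of 69.2% G or C. At least 1 GC box occurs in 32.7% of all stretches and at least 1 CCAAT match in 33.8%. The *Cldn4* stretch held 2 TGANTCA matches, 1 GC box and 1 CAGGTG match, the last starting 14 bases before the start. TGANTCA occurs in 6.75% and CAGGTG in 17.2% of all stretches. A match describes these letters only.

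All 9 genes were expressed, over a wide range of levels. Levels are compared between genes as CPM per kilobase of annotated exon (RPKM). *Cldn3* was the highest at 216 ± 13.8 RPKM in WT (SD, n = 3), followed by *F11r* at 89.1 ± 1.10 RPKM. *Cgn* was at 39.0 ± 2.23, *Tjp1* at 33.8 ± 0.82 and *Cldn12* at 32.9 ± 0.98 RPKM in WT. Below these stood *Cldn4* at 24.2 ± 3.27, *Cldn2* at 17.2 ± 0.84 and *Cldn1* at 14.98 ± 1.21 RPKM. *Ocln* was the lowest at 5.93 ± 0.32 RPKM. The ranges over the 6 libraries overlapped for the neighbours *Tjp1* and *Cldn12*, *Cldn12* and *Cldn4*, and *Cldn4* and *Cldn2*, *Tjp1* being above *Cldn12* in 5 of 6 libraries, *Cldn12* above *Cldn4* in 4 of 6 and *Cldn4* above *Cldn2* in 6 of 6. The other 5 pairs of neighbours did not overlap.

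**Figure D1:**
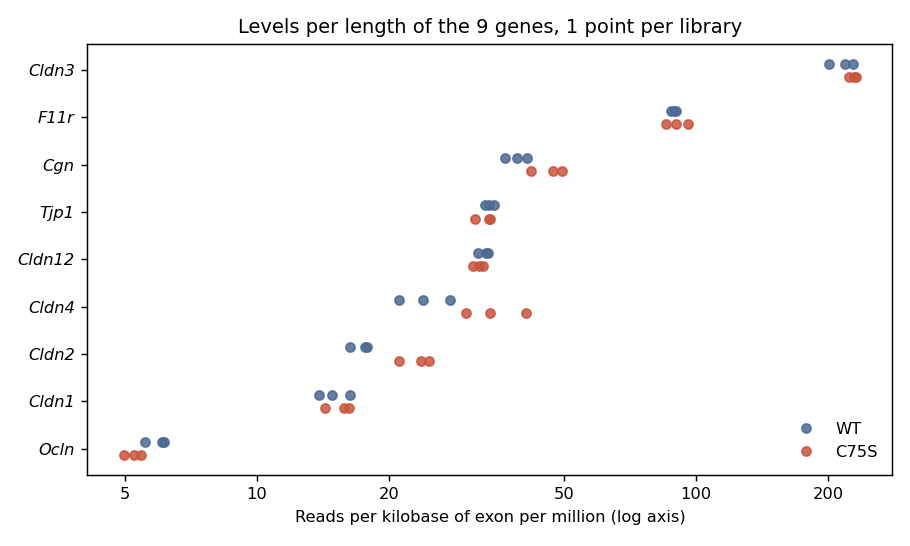
Level per length of the 9 tight junction genes on a log axis, in RPKM, with 1 point for each of the 3 WT and 3 C75S libraries. *Cldn3* stands alone at the top, from 201 to 232 RPKM, and *Ocln* at the bottom, from 4.97 to 6.15 RPKM.

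The comparison asked which transcripts differ when the AEG-1 cysteine is replaced. In edgeR's quasi-likelihood test across 12741 genes, 3.11% of all genes passed a Benjamini-Hochberg adjusted threshold of 0.05 (called hereafter), 1.74% as higher in C75S and 1.37% as lower. Of the 9 tight junction genes, all of which could be tested, 2 were called, *Cldn2* and *Cgn*, both higher in C75S. The 9 genes had a median log2 fold change of 0.04, against -0.003 over all tested genes. In 4 of the 9 the genotypes did not overlap, 3 higher in C75S and 1 lower, and in 18% of all tested genes they did not, 9.01% higher and 8.96% lower. An unadjusted p under 0.05 was reached by 4 of the 9 genes and by 13.4% of all tested genes. The number of members is small, and nothing particular to the set is read from these shares.

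**Figure D2:**
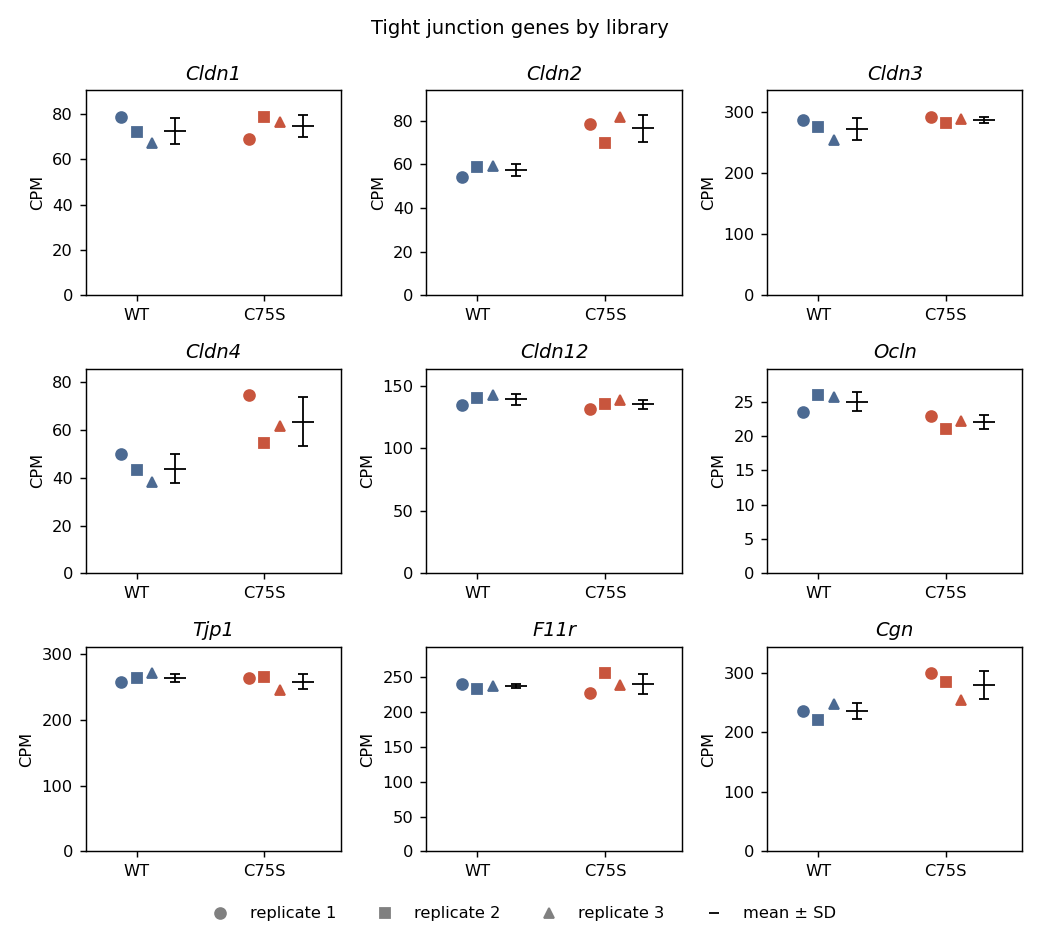
CPM of the 9 tight junction genes in each library, with the marker shape giving the replicate number and the bar the mean ± SD of 3 libraries. The genotypes do not overlap for *Cldn2*, *Cgn*, *Cldn4* and *Ocln*, and overlap for the other 5 genes.

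Among the claudins, *Cldn2* (ENSMUSG00000047230, chromosome X, 139800828 to 139811386 on the plus strand of GRCm38), the pore-forming claudin, rose in C75S. Its level was 54.1, 58.6 and 59.1 CPM in WT replicates 1 to 3 and 78.5, 69.9 and 81.8 CPM in C75S replicates 1 to 3. Every C75S library was thus above every WT library. The log2 fold change was 0.42 (SE 0.06, 95% interval 0.29 to 0.55), a fold of 1.34, with an edgeR adjusted p of 0.000171. *Cldn2* was called in each of the 16 alternative fits, with adjusted p-values up to 0.00265. No reads were counted on its opposite strand in any library. The gene is X-linked. *Xist*, transcribed from the inactive X chromosome, was at most 0.39 CPM in all 6 libraries. The Y-linked *Ddx3y* was at 101, 96.0 and 103.5 CPM in WT and at 128.5, 121 and 115 CPM in C75S, so each C75S library was above each WT library, whereas the ranges of the Y-linked *Eif2s3y*, *Kdm5d* and *Uty* overlapped between genotypes. Y-linked transcripts with almost no *Xist* are the pattern of male cells, and all 6 libraries showed it. On the X chromosome 4.47% of 380 tested genes were called, against 3.11% of all tested genes.

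*Cldn4* (ENSMUSG00000047501, chromosome 5, 134945119 to 134946934 on the minus strand), a barrier claudin abundant in bile duct epithelium, had the largest difference of the 9 genes but was not called. It stood at 50.1, 43.3 and 38.2 CPM in WT replicates 1 to 3 and at 74.6, 54.5 and 61.8 CPM in C75S replicates 1 to 3. The genotypes did not overlap, and C75S replicate 1 was the highest library. The spread between replicates was also the widest of the 9 genes, at 16.05% of the mean in C75S and 13.5% in WT. The log2 fold change was 0.53 (SE 0.14, 95% interval 0.20 to 0.86), with an edgeR adjusted p of 0.128. The call differed between fits: the adjusted p was 0.00416 in limma-voom, 0.00237 in edgeR without robust dispersion estimates and 1.25e-11 in edgeR with no filter beyond 1 count, but 0.0626 in DESeq2. It was 0.00211, 0.0294 and 0.0429 when C75S replicate 2, C75S replicate 1 or WT replicate 1 was left out. Over all 16 alternatives it ranged from 1.25e-11 to 0.261, the highest being without WT replicate 2.

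Markers of bile duct cells, which express *Cldn4*, are given beside this value. Of the 10 cholangiocyte markers 8 could be tested, and 6 of these had higher means in C75S. Of the 8, 5 had an unadjusted edgeR p under 0.05, against 13.4% of all tested genes. Only 1, *Krt19*, was called (2 in limma-voom), against 3.11% of all tested genes. The median log2 fold change of the 8 was 0.46. *Krt19* was at 5.46 ± 0.26 CPM in WT and 9.51 ± 1.22 CPM in C75S (SD, n = 3 each). The secreted glycoprotein *Spp1* was at 156 CPM in C75S replicate 1, the highest library for *Cldn4* too, against 105 and 133 CPM in the other C75S libraries and 83.9 to 96.5 CPM in WT (edgeR adjusted p = 0.235). The 10 markers summed to 362 to 404 CPM in WT and 402 to 450 CPM in C75S, while *Cftr* was at 0 in all 6 libraries. The largest part of that sum came from *Anxa4*, at 235 ± 17.1 CPM in WT and 219 ± 5.63 CPM in C75S. *Sox9* was at 29.7 ± 2.00 CPM in WT and 28.5 ± 0.57 CPM in C75S. *Epcam* was at 0.57, 0.15 and 0.19 CPM in WT and 0, 0.05 and 0.11 CPM in C75S, lower in each C75S library. With 22 counts over all 6 libraries, *Epcam* was near the floor and could not be tested. The part of the bile duct markers in the *Cldn4* difference was not tested.

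The other 3 claudins showed no detectable difference with 3 libraries per group. *Cldn3* (chromosome 5, 134986214 to 134987472), a barrier claudin, was at 288, 275 and 254 CPM in WT and 292, 282 and 289 CPM in C75S. Its log2 fold change was 0.08 (95% interval -0.03 to 0.19, edgeR adjusted p = 0.55). *Cldn1* (chromosome 16, 26356642 to 26371841), a barrier claudin of the canalicular junction and a hepatitis C virus entry factor in human liver, was at 78.6, 71.9 and 67.0 CPM in WT and 69.2, 78.6 and 76.4 CPM in C75S. The genotypes overlapped, and the interval of its log2 fold change was -0.09 to 0.18. *Cldn12* (chromosome 5, 5489537 to 5514958), an atypical claudin, was at 134, 141 and 142 CPM in WT and 131, 136 and 138 CPM in C75S, with an interval of -0.14 to 0.06.

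The make-up of the claudin pool was compared as shares. *Cldn3* made up 70.8% ± 0.69 of the summed RPKM of the 5 claudins in WT and 68.4% ± 0.76 in C75S (SD, n = 3 each). The share of *Cldn2* was 5.08%, 5.72% and 6.18% in the WT libraries and 6.91%, 6.50% and 7.31% in the C75S libraries. That of *Cldn4* was 8.61%, 7.73% and 7.32% in WT and 12.03%, 9.28% and 10.1% in C75S. For both genes each C75S share exceeded each WT share, while *Cldn12* went from 10.8% ± 0.89 to 9.58% ± 0.44 and *Cldn1* from 4.90% ± 0.15 to 4.63% ± 0.43. The summed level of the 5 claudins was 306 ± 16.5 RPKM in WT and 334 ± 9.61 RPKM in C75S. These shares are a description, and no test was made on them.

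**Figure D3:**
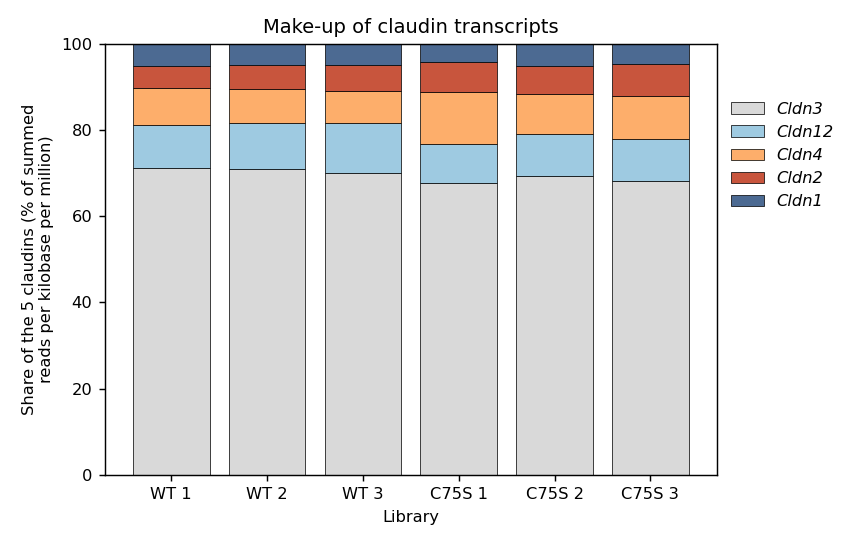
Share of each of the 5 claudins in their summed RPKM, as 1 stacked bar per library. *Cldn3* takes 67.8% to 71.3% in all 6 libraries, and the *Cldn2* and *Cldn4* segments are larger in each C75S library than in each WT library.

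The remaining membrane proteins were *Ocln* and *F11r*. Occludin, *Ocln* (ENSMUSG00000021638, chromosome 13, 100496507 to 100552718), was at 23.5, 26.0 and 25.6 CPM in WT and 22.9, 20.997 and 22.2 CPM in C75S. Every C75S library was below every WT library, by a narrow margin for WT replicate 1. The log2 fold change was -0.18 (SE 0.08, 95% interval -0.36 to -0.01), and the gene was not called (edgeR adjusted p = 0.329), nor in any of the 16 alternatives (0.208 to 0.607). *F11r* (chromosome 1, 171437535 to 171464603) was at 240, 234 and 238 CPM in WT and 228, 256 and 239 CPM in C75S. Its log2 fold change was 0.02 (95% interval -0.08 to 0.13), with C75S libraries on both sides of the WT range.

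Of the plaque proteins, *Cgn* was called and *Tjp1* was not. Cingulin, *Cgn* (ENSMUSG00000068876, chromosome 3, 94760069 to 94786492 on the minus strand), which binds ZO-1 and actin, rose in C75S. It was at 235, 221 and 248 CPM in WT replicates 1 to 3 and at 299, 285 and 254 CPM in C75S replicates 1 to 3. The lowest C75S library, replicate 3, was only slightly above the highest WT library. The log2 fold change was 0.25 (SE 0.06, 95% interval 0.13 to 0.37), a fold of 1.19, with an edgeR adjusted p of 0.0162. The call was kept in the 10 alternatives that used all 6 libraries (adjusted p up to 0.0242) and lost when WT replicate 2 (0.145), C75S replicate 1 (0.0962), C75S replicate 2 (0.0585) or WT replicate 1 (0.0571) was left out.

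Part of *Cgn* has a near copy. The unprocessed pseudogene *BC021767*, on the same chromosome (94661830 to 94670696), matches 1716 bases of the longest *Cgn* transcript at 98.7% identity. Multimapping reads stand in a row of their own in the files and count for no gene. The pseudogene had 601 counts over the 6 libraries, against 30602 for *Cgn*. Among the other 8 genes, matches of at least 100 bases to another gene's transcript were at most 86.2% identical.

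ZO-1, *Tjp1* (ENSMUSG00000030516, chromosome 7, 65296165 to 65527781), the scaffold that claudins and occludin bind, was at 258, 264 and 271 CPM in WT and 264, 266 and 246 CPM in C75S. The log2 fold change was -0.03 (95% interval -0.13 to 0.07), so this scaffold showed no detectable difference. The difference between *Cgn* and *Tjp1* was not tested.

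**Figure D4:**
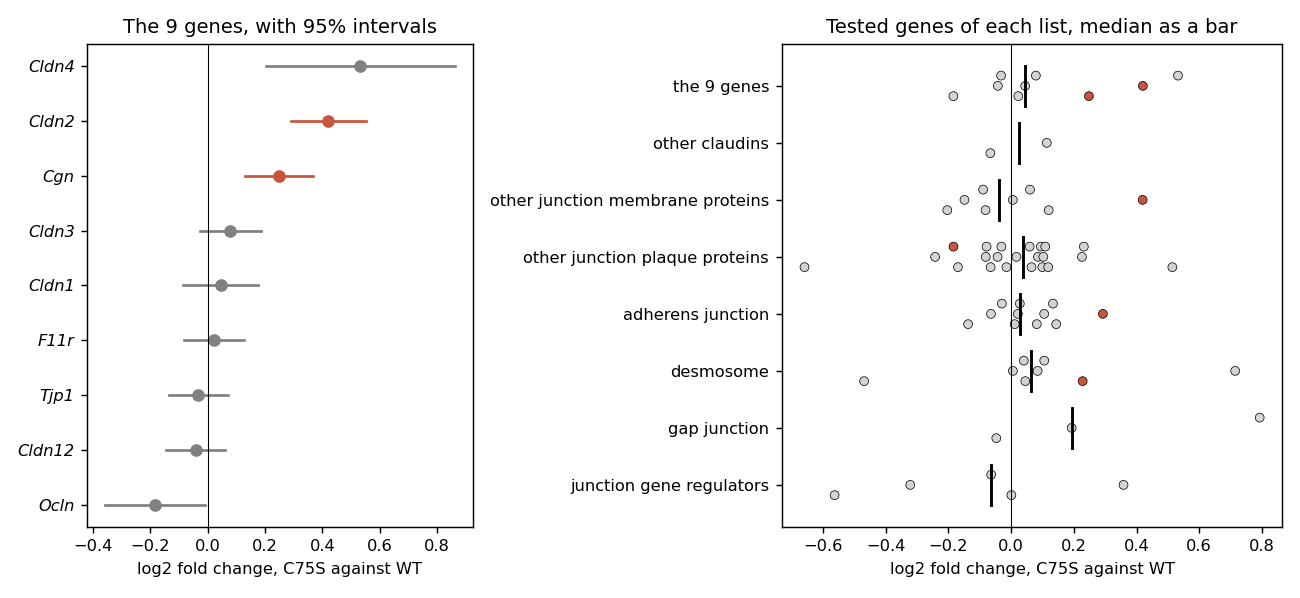
Left, log2 fold change of C75S against WT for the 9 genes with 95% intervals. Right, log2 fold changes of the tested genes in the 9 genes and 7 related lists, each point 1 gene, with the list median as a bar and genes with an adjusted p under 0.05 in red. *Cldn2* and *Cgn* are the red points among the 9 genes, and 4 red points lie in the lists of other junction genes.

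Other genes of cell junctions were read from the same fit. Of 20 other claudins 19 were matched, 10 of these had 0 counts in every library, and 2 could be tested. Of these 0 were called in edgeR, DESeq2 or limma-voom, and 0 had an unadjusted edgeR p under 0.05. *Cldn14* was the higher of them, at 17.7 ± 1.87 CPM in WT and 16.9 ± 2.09 CPM in C75S (SD, n = 3 each). Together the other claudins came to 3.17% of all claudin RPKM in WT and 2.85% in C75S. The endothelial claudin *Cldn5* and the bile duct claudin *Cldn7* were at most 0.63 and 0.24 CPM.

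Other membrane proteins of the junction gave 1 call among 8 tested genes, and the list's median log2 fold change was -0.04. *Ildr2*, an angulin of tricellular junctions, rose, with 43.0 ± 3.40 CPM in the C75S libraries against 32.1 ± 1.39 in the WT libraries (SD, n = 3 each). Its log2 fold change of 0.42 had an SE of 0.07 and an edgeR adjusted p of 0.000991. It was called in all 16 alternatives. *Lsr*, an angulin that also takes up lipoproteins, had the highest level per exon length of these 8 genes, at 155 RPKM in WT and 156 RPKM in C75S. Among 22 tested plaque and polarity proteins, with a median of 0.04, *Amotl2*, an angiomotin that binds polarity complexes, was the single call. It fell, with 166 ± 2.81 CPM in the C75S libraries against 189 ± 3.22 in the WT libraries. Its log2 fold change of -0.18 had an SE of 0.05 and an edgeR adjusted p of 0.0296. The call was lost when any 1 library other than WT replicate 1 was left out (adjusted p up to 0.152). *Cgnl1*, paracingulin, had the highest level per exon length of these 22 genes and did not differ detectably, at 278 ± 9.67 CPM in WT and 291 ± 14.1 CPM in C75S.

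Adherens junctions and desmosomes gave 1 call each. Among 11 adherens junction genes *Cdh1*, E-cadherin, rose from 108 ± 6.55 to 132 ± 2.18 CPM (log2 fold change 0.29, SE 0.05, edgeR adjusted p = 0.0014) and was called in all 16 alternatives. *Ctnnb1*, beta-catenin, the gene of that list with the highest level per exon length, had a log2 fold change of 0.02. Among 8 desmosome genes *Ppl*, periplakin, rose from 199 ± 15.1 to 233 ± 11.9 CPM (log2 fold change 0.23, edgeR adjusted p = 0.0216), a call lost when C75S replicate 2, WT replicate 1 or WT replicate 2 was left out (adjusted p up to 0.128). *Dsp*, desmoplakin, had a log2 fold change of 0.01. Of 3 tested gap junction genes 0 were called in edgeR, DESeq2 or limma-voom, with 1 at an unadjusted edgeR p under 0.05, and *Gjb1*, connexin 32, was the highest per exon length, at 71.2 RPKM in WT and 68.8 RPKM in C75S. Over the 6 lists of other junction genes 4 of 54 tested genes were called (7.41%), 3 higher and 1 lower, against 3.11% of all genes, and the median log2 fold change was 0.04.

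Of 5 tested transcription factors that act on junction genes 0 were called in edgeR, DESeq2 or limma-voom, and 0 had an unadjusted edgeR p under 0.05. The repressor *Snai2* was at 3.10 ± 0.46 CPM in WT and 3.98 ± 0.44 CPM in C75S, *Snai1* at most 0.47 CPM, and *Hnf4a*, which maintains hepatocyte identity, at 580 ± 20.4 CPM in WT and 554 ± 18.9 CPM in C75S.

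The genes whose levels followed those of the called members most closely over the 6 libraries were sought among 9636 tested genes of at least 5 CPM. For *Cldn2* they were *Slc35c2*, *Gadd45g* and *Fgl1*, with Pearson correlations of log2 CPM of 0.99 for each. For *Cgn* they were *Lrp8*, *Ehd4* and *Pcna*, also at 0.99 or above. All 6 share the split between genotypes with the member they follow, which 18% of all tested genes had. *Gadd45g*, *Fgl1* and *Ehd4* were called themselves, against 3.11% of all tested genes. The 6 were picked for their likeness to a member with that split, so nothing is read from these counts. A correlation over 0.9 was shared with *Cldn2* by 225 genes and with *Cgn* by 132, so with 6 points such a value is a description only.

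**Figure D5:**
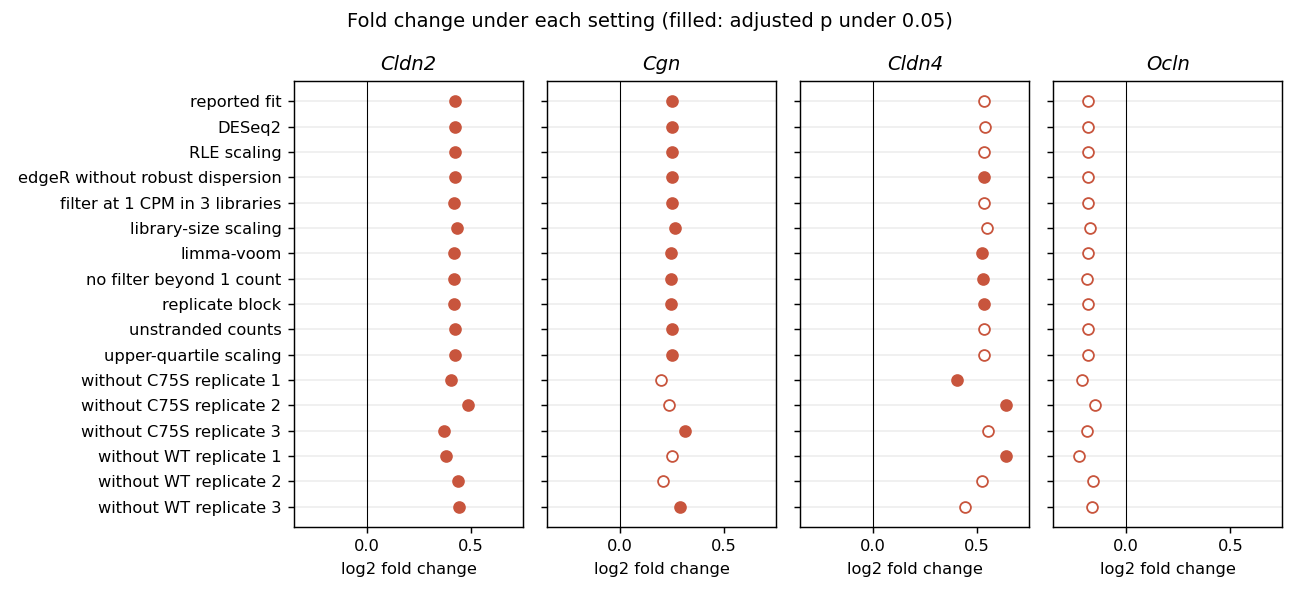
Log2 fold change of *Cldn2*, *Cgn*, *Cldn4* and *Ocln* in the reported fit and under 16 other settings, with filled points where the adjusted p was under 0.05. *Cldn2* is filled throughout, *Cgn* is open in 4 fits that left out a library, *Cldn4* is filled in 7 settings and *Ocln* in 0.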

How the data were processed

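Per the submitters' processing notes, reads were handled with Trim Galore 0.6.6 and STAR 2.7.9a (edgeR 3.36.0 is also listed) on mm10, that is GRCm38. The annotation release is not given in the sources used here. Each deposited file holds the authors' raw gene counts for 1 library, unstranded and for each strand. Reverse-strand counts exceeded forward-strand counts by 32.9 to 33.9 times and were used. The 4 summary rows were dropped: unmapped reads were 4.37% to 5.81% of a library, multimapping reads 18.0% to 18.5%, those outside annotated genes 4.99% to 5.55%, and ambiguous ones 0.89% to 0.93%. A count of 3 was worth 0.143 to 0.177 CPM.

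Symbols and positions are those of GENCODE M21 (GRCm38), in which 55227 of 55487 identifiers were found, and 1 of 167 list symbols was not matched. Genes were filtered with filterByExpr (minimum count 10, minimum total 15), scaled by TMM and tested in R 4.3.3 by edgeR 4.0.16, as a quasi-likelihood fit with robust dispersion, genotype as the single term, a two-sided test and Benjamini-Hochberg adjustment at 0.05. The SE is the log2 fold change divided by the square root of F. CPM uses TMM-scaled library sizes, and RPKM divides by the union of annotated exons. Alternatives were limma-voom (limma 3.58.1), DESeq2 1.42.0, scaling by library size, RLE or the upper quartile, other filters, unstranded counts, a replicate block and each library left out. A fit without robust dispersion was added after seeing the data. Copies were sought with BLAST 2.17.0. Replicates of a genotype differed by 4.05 to 8.99 times counting noise (chi-square per degree of freedom).

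The members and the lists were chosen with earlier results of these data known. Besides the 9 members, the genes named were up to 4 called genes per junction list, its gene of highest RPKM, and the 3 genes most correlated with each called member. Of the lists, 1 is not reported here. Markers, *Cldn5*, *Cldn7*, *Snai1*, *Snai2*, *BC021767* and the sex-linked genes are named outside that rule. On simulated counts for 12741 genes with 200 changed by 1.5-fold, the test called 71% of the changed genes. Of its calls 8.39% were false, a share above the adjusted threshold of 0.05. The called members had smaller folds, 1.34 for *Cldn2* and 1.19 for *Cgn*. The share of genes called at such folds was not simulated, so the 71% does not describe it.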

Additional observations from a re-analysis of the deposited data

How the results depend on the processing

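The 2 calls among the 9 genes stayed at 2 or became 3 under each setting that kept all 6 libraries, *Cldn4* being the addition, and ranged from 1 to 2 when a library was left out. These were *Cldn2* and *Cldn4* without WT replicate 1 or without either of C75S replicates 1 and 2, *Cldn2* and *Cgn* without C75S replicate 3 or WT replicate 3, and *Cldn2* without WT replicate 2. The count of called genes ranged from 201 to 355 when a library was left out (201 with WT replicate 2 left out, 253 with C75S replicate 1 and 246 with WT replicate 3) and from 372 to 573 with all 6. Replicate numbers showed no sign of pairing: deviations from the group means correlated at 0.02, -0.04 and 0.03 for equal numbers. For unequal numbers they correlated at -0.04 to 0.02. With 3 libraries per group these values do not settle whether the libraries were paired. A replicate block called 480 genes in place of 396, and 3 members in place of 2, with an adjusted p of 1.36e-05 for *Cldn4*. Small fold changes that were not called turned sign without single libraries: *Cldn1* ranged from -0.0090 to 0.11, *Tjp1* from -0.0529 to 0.0032, *F11r* from -0.0218 to 0.0617, *Cldn14* from -0.16 to 0.0133, *Lsr* from -0.0286 to 0.0434, *Dsp* from -0.0287 to 0.0281 and *Gjb1* from -0.14 to 0.0612. The causes were not tested. With the longest transcript as length, with unstranded counts or with library-size scaling, 0 of the 9 genes changed rank in level. *Cldn3* dropped to 189.9 RPKM in unstranded counts. Its antisense neighbour *Wbscr25* shares 40 bases of annotated exon with it, and the part of that overlap in the drop was not tested. Scaling moved the median of all genes by at most 0.012.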

Other observations

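*Cldn3* and *Cldn4* are neighbours on chromosome 5 that are read in opposite directions, with 39280 bases between their starts. The ratio of *Cldn4* to *Cldn3* in RPKM was 0.177, 0.134 and 0.148 in C75S replicates 1 to 3 and 0.121, 0.109 and 0.105 in WT replicates 1 to 3. It was higher in every C75S library, a difference noticed in the data before it was tested. The exact two-sided permutation test gave p = 0.1, and with 3 libraries a group no smaller p can be reached. Groups of that size that do not overlap always give this value, so nothing is concluded from the test.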
